A study of Mus musculus with 6 samples.

Results

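The spliceosome removes introns from nuclear pre-mRNA, and the exon junction complex is the protein mark it leaves on the joined exons. Both were followed here through 67 genes of the 24318 in a gene-level RNA-seq table. They are the rows whose symbol begins with Prpf, Sf3a, Sf3b or Lsm and a number, or with Snrp, together with 20 named genes that include the helicase gene Aqr, the U2 auxiliary factor genes and the exon junction complex genes Magoh, Rbm8a, Eif4a3 and Cwc22. The rule uses names and no measured value, but it was drawn up with earlier results of these data known. All 6 libraries were made from CAD, a catecholaminergic neuronal cell line of the mouse. In 3 of them the cells had received an siRNA labelled si circGIGYF2 (siCircGigyf2 here) and in the other 3 a control siRNA labelled si NC (siNC here), and the labels name no further genotype, agent, dose or time. RNA was total RNA depleted of ribosomal RNA. Whether the libraries of a group came from separate cultures is not stated. The p-values therefore rest on the spread among these libraries alone, and that spread may be technical.

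As background, small nuclear ribonucleoproteins (snRNPs) assemble stepwise on each intron. U1 and U2 mark its ends, the U4/U6.U5 tri-snRNP joins, and RNA helicases then rearrange the particle while the Prp19 complex stabilises its active form. A ring of Sm proteins surrounds most spliceosomal RNAs and a ring of Lsm proteins surrounds U6. Neurons are known for extensive alternative splicing and for expressing the Sm protein SmN. The table measures the mRNAs of these proteins and not splicing itself.

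Each value is in FPKM (fragments scaled to transcript length and to the mapped fragments of the library), a scale per length on which genes can be compared. Library sums of FPKM were 604881 to 624645 in the siCircGigyf2 and 578627 to 601552 in the siNC libraries, so the 2 groups did not overlap. The number of fragments was not given, but the steps between low values placed the siCircGigyf2 libraries at 0.802 to 0.914 of the depth of siNC replicate 1. On the same measure siNC replicates 2 and 3 were at 0.979 and 0.953, so every siCircGigyf2 library was shallower than every siNC library. The part of depth in the results below was not tested. Of 14 markers of catecholaminergic neurons, some of them general neuronal genes, 13 had a mean of at least 1 FPKM, and Ddc, the decarboxylase of the pathway, did not. The synthesis enzyme genes Th, Dbh and Ddc had means over the 6 libraries of 3.76, 1.45 and 0.333 FPKM. Of the 13 markers with a mean of at least 1 FPKM, 4 were higher and 5 lower in the siCircGigyf2 libraries (69.2% called by limma at an adjusted p under 0.05, where 38.2% of all genes tested were). Among them Gap43, a growth cone protein gene, rose by 0.59 and Tubb3, a neuronal tubulin gene, by 0.55 on the log2(FPKM + 1) scale (limma adjusted p = 1.79e-05 and 3.69e-05). Slc18a1 and Hand2 also rose, by 0.33 and 0.18 (limma adjusted p = 0.00269 and 0.00126). Gata2, Phox2a, Chgb and Chga fell by 0.25, 0.20, 0.14 and 0.12 (limma adjusted p = 0.00463, 0.0229, 0.00938 and 0.0265), and the groups of Phox2a overlapped. The stability of these further calls was not examined. Dbh, the noradrenaline-forming enzyme gene, fell by 0.37 (limma adjusted p = 0.0434), a call lost without siCircGigyf2 replicate 1 (0.0821), siCircGigyf2 replicate 3 (0.126), siNC replicate 1 (0.107) or siNC replicate 2 (0.141) and with no low-value filter (0.0867), over a range of 0.0154 to 0.141. The part of these marker differences in the results below was not tested. Astrocyte markers summed to 0.219 to 0.5 FPKM in the siCircGigyf2 and 0.189 to 0.487 FPKM in the siNC libraries, with 3 of 5 at 0 throughout. Oligodendrocyte markers summed to 0.901 to 1.26 and 0.894 to 1.19 FPKM (1 of 5 at 0), microglial markers to 0.167 to 0.304 and 0.0609 to 0.208 FPKM (2 of 5 at 0), and fibroblast markers to 3.70 to 4.13 and 3.40 to 4.10 FPKM (2 of 5 at 0, Col1a2 and Lum). Within that sum Col1a1 was higher, at 1.47 ± 0.198 against 0.924 ± 0.116 FPKM (SD, n = 3, limma adjusted p = 0.018), a call lost without siCircGigyf2 replicate 1 (0.059) or siNC replicate 2 (0.0602), over a range of 0.00886 to 0.0602. Fewer cells of a type and less RNA per cell cannot be told apart in such bulk samples. Gigyf2, the host gene of the targeted circular RNA, was at 21.4 ± 0.330 FPKM (SD, n = 3) against 23.2 ± 0.0749 FPKM, a gene-level value that does not separate linear from circular molecules. Its groups did not overlap and it fell by 0.11 (limma adjusted p = 0.0287), a call lost without any library but siCircGigyf2 replicate 1 (adjusted p from 0.0655 to 0.0845, over a range of 0.0207 to 0.0845).

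The member that differed most was Cdc40, which encodes a factor (Prp17) of the second catalytic step of splicing. Its level was 29.7, 28.7 and 29.9 FPKM with the circGigyf2 siRNA and 44.3, 44.6 and 47.7 FPKM with the control siRNA. All 3 siCircGigyf2 values lay well under the lowest siNC value, with a ratio of group means of 0.647. The difference in log2(FPKM + 1), siCircGigyf2 minus siNC, was -0.61 (SE 0.038, limma adjusted p = 1.93e-05). Cdc40 was also 1 of only 2 members whose annotated 3′ UTR holds the 7 bases GCCTACA. That sequence had been singled out from genes that fell in these same libraries, so its presence in a gene that fell is a description and supports nothing. In the transcript-strand search of the 3′ UTR of the longest coding transcript, 2 of 67 members held it (2.99%), as did 678 of 10444 tested genes with an annotated 3′ UTR (6.49%). The other was Prpf19. The sites are shown so that the letters around the sequence can be compared between these genes. They are written 5′ to 3′ on the transcript strand with the 7 bases in capitals, and their coordinates are those of build GRCm38, not of mm9, the build of the deposited table.
Cdc40, minus strand of chr10:40832571-40832599, 3′ UTR: cacccacagtcGCCTACAgtcacctacag
Prpf19, plus strand of chr19:10909073-10909101, 3′ UTR: aattcctcaccGCCTACAttggtgctctg
Prpf19, plus strand of chr19:10909148-10909176, 3′ UTR: ccctctcagagGCCTACAtctagacttct

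Prpf19, the ubiquitin ligase that gives the Prp19 complex its name, carries these sites at positions 3952 and 4027 of a 3′ UTR annotated at 4427 bases, and whether CAD cells express a transcript that reaches them was not tested. It was at 9.5, 10.6 and 9.95 FPKM against 11.1 ± 0.266 FPKM (SD, n = 3) in the siNC libraries. Its groups did not overlap, but its log2 difference of -0.13 did not pass the test (limma adjusted p = 0.0605). None of the 3 sites was followed by an A, which extends the sequence to 8 bases in 144 of the 10444 genes. The site in Cdc40 begins at position 591 of a 3′ UTR of 1558 bases.

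Over the whole group the changes were small and most of the calls were falls. Of 67 members, all of which passed the filter of a mean of 1 FPKM, 17 were lower and 7 higher in the siCircGigyf2 libraries at a limma adjusted p under 0.05, and 43 did not pass. The share called, 35.8%, was close to the 38.2% of all 11420 genes tested, and so is not a result about these genes. The background share moved with the filter, however, and all members lay above 5 FPKM (lowest mean 5.07 FPKM). With a filter of 5 FPKM, 45.4% of 8677 genes were called, beside the same 35.8% of members, a difference that was not tested. By direction, and at the filter of 1 FPKM, 25.4% of members were called lower, where 18.7% of all genes were. Those called higher were 10.4% of members and 19.5% of all genes. These differences by direction were not tested, and no shares of genes at levels like those of the members are set beside them. The siCircGigyf2 and siNC values did not overlap for 31 members (46.3%, against 51.0% of all genes tested), 20 of them lower and 11 higher. The median log2 difference was -0.024, against 0.00035 over all genes, and its typical size was also modest, with a median absolute difference of 0.089 against 0.12. Among called genes it was 0.17 for members and 0.25 for all genes. The members lay at higher levels (median of the mean level 40.8 FPKM, against 12.6 FPKM for all genes tested). The part of level in the size of these differences was not tested. Only Cdc40 reached 1.5-fold on the log2(FPKM + 1) scale. The count of members called higher was the less stable of the directions: it was 2 without siCircGigyf2 replicate 3, 3 without siNC replicate 1 and 4 without siNC replicate 3, where the count of falls stayed between 13 and 17 over the same exercise.

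**Figure D1:**
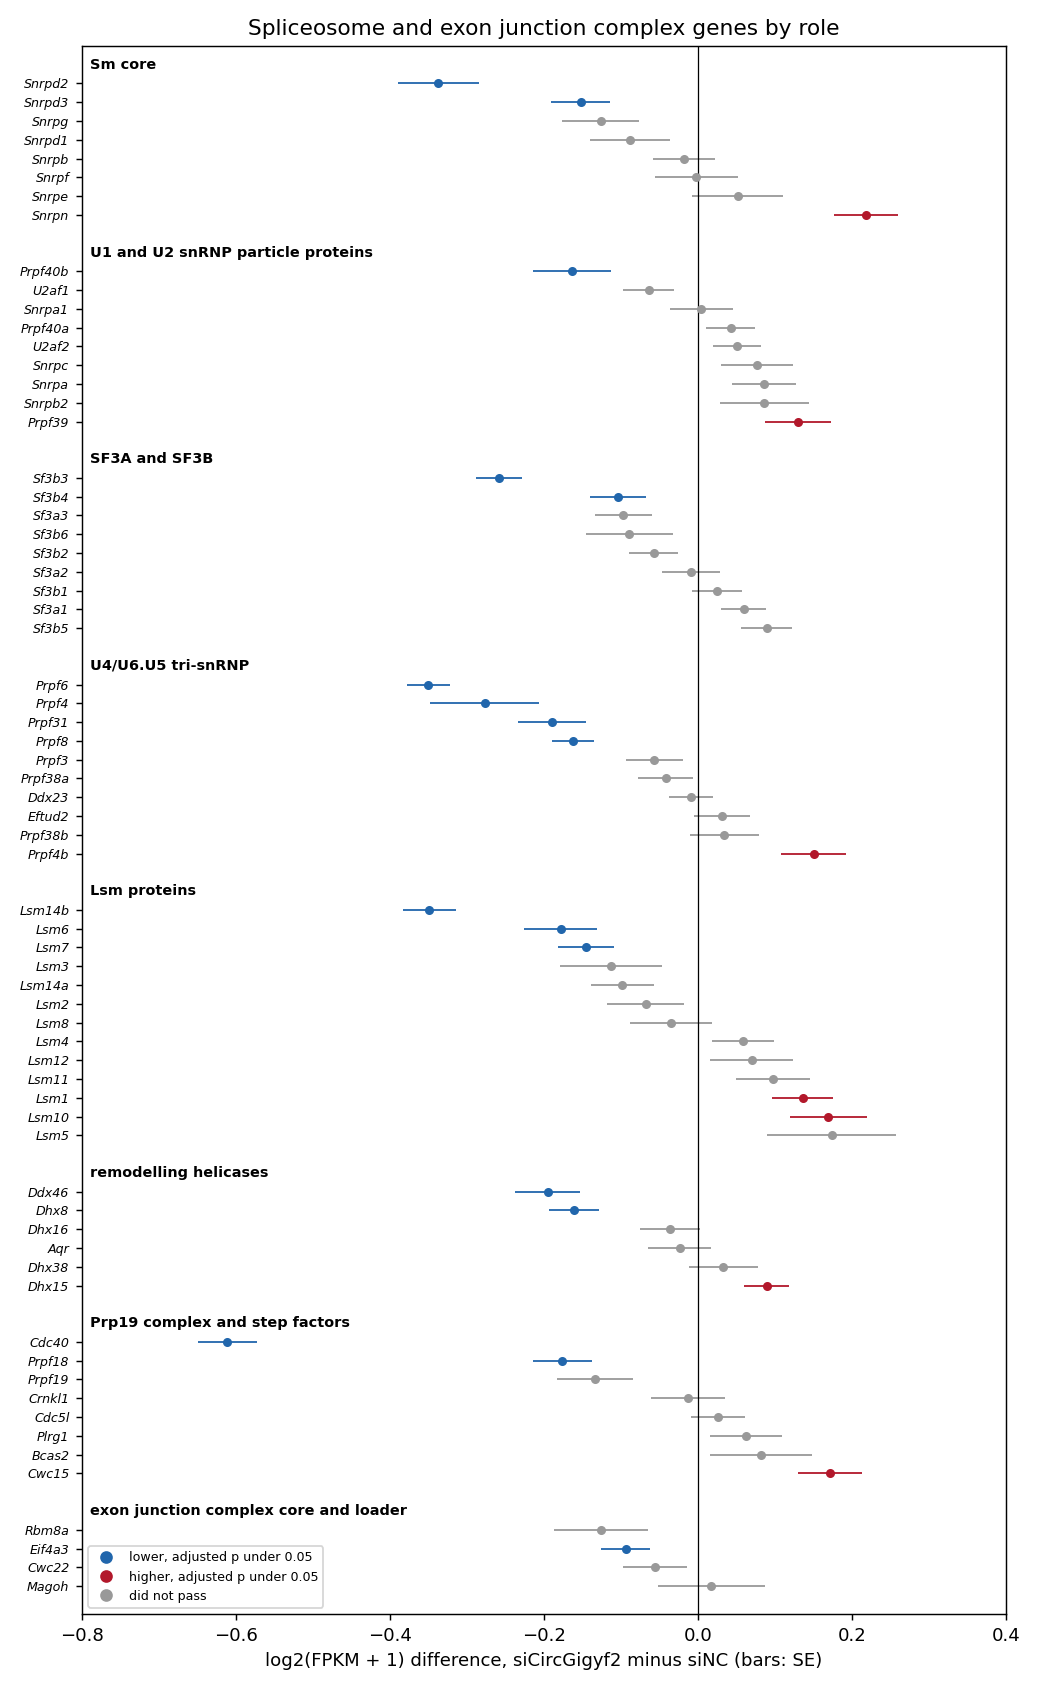
Difference in log2(FPKM + 1), siCircGigyf2 minus siNC, for each of the 67 genes, grouped by role, with bars of 1 SE (3 libraries a group). Blue genes were lower and red genes higher at a limma adjusted p under 0.05, and grey genes did not pass. Cdc40 stands apart at -0.61, and the other members lie between -0.35 and 0.22.

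**Figure D2:**
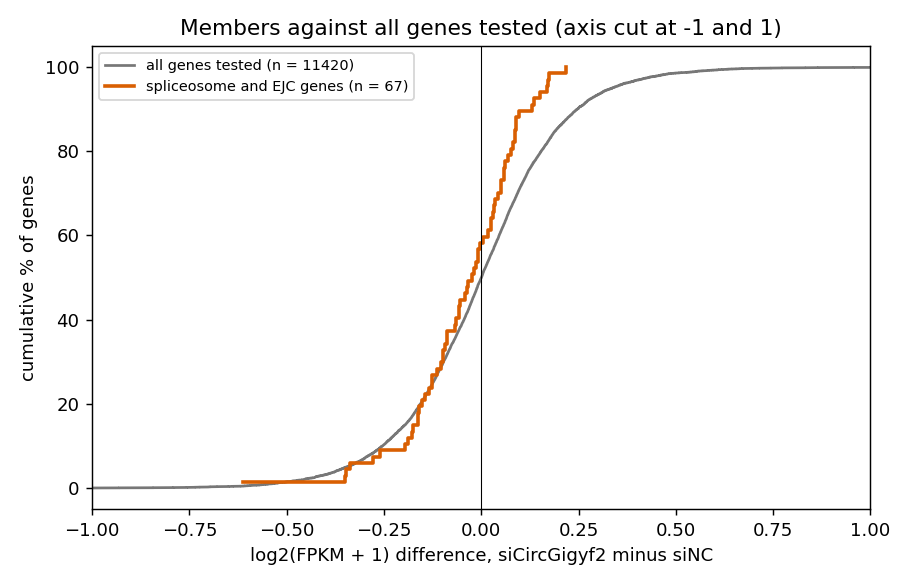
Cumulative share of genes (y axis, %) by log2(FPKM + 1) difference (x axis, siCircGigyf2 minus siNC, drawn from -1 to 1) for the 67 members and for all 11420 genes tested. The members' curve reaches 100% at 0.22. The extremes of 67 genes mostly lie inside those of 11420 whatever the list, so its narrower range is not a result about the members.

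The Sm core genes included the 3 most abundant members, and of the 8 measured 2 fell and 1 rose (37.5% called, against 38.2% of all genes). The ring has 7 positions, and all of its mRNAs were measured. Snrpe, Snrpg, Snrpd3 and Snrpd2 lay highest, at means over the 6 libraries of 329, 312, 274 and 208 FPKM, Snrpf, Snrpd1 and Snrpb followed at 113, 96.2 and 66.0, and Snrpn, the SmN gene, was lowest at 28.7 FPKM. Snrpd2, which encodes SmD2, was at 183, 172 and 198 FPKM with the circGigyf2 siRNA and at 242, 223 and 233 FPKM with the control siRNA. The groups did not overlap, and Snrpd2 fell by 0.34 (SE 0.053, limma adjusted p = 0.0012). Another protein of the ring, SmD3, is encoded by Snrpd3, at 260, 250 and 268 against 278, 301 and 287 FPKM. The highest siCircGigyf2 library was under the lowest siNC library, and the fall of 0.15 passed the test (SE 0.039, limma adjusted p = 0.0136). Snrpd3 shares 232 exonic bases with Gucd1 on the opposite strand, and the handling of strand is not given in the sources used here. Such an overlap was annotated for 14 of the 67 members, 7 of them called. Those 7 were Snrpd3, Snrpn, Prpf39, Prpf31 (351 bases, 11.2% of its transcript), Prpf4b, Sf3b3 and Sf3b4.

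SmN takes the place of SmB in the ring, and its gene rose while that of SmB did not pass the test. Snrpn was at 30.3, 30.0 and 32.6 FPKM with the circGigyf2 siRNA against 26.1, 26.1 and 27.2 FPKM with the control siRNA. Every siCircGigyf2 library was above every siNC library, and the log2 rise of 0.22 was the greatest of the 67 (SE 0.041, limma adjusted p = 0.00319). Snrpb was at 65.6 ± 3.57 against 66.4 ± 0.874 FPKM (SD, n = 3), with a log2 difference of -0.02 (95% interval -0.11 to 0.07, limma adjusted p = 0.749) that turned to 0.015 without siCircGigyf2 replicate 1. The ratio of Snrpn to Snrpb was 0.473 ± 0.0378 against 0.399 ± 0.0149 (SD, n = 3), higher in each siCircGigyf2 library (0.485, 0.431 and 0.504) than in any siNC library (0.388, 0.393 and 0.416). An exact two-sided permutation test of the log ratio gave p = 0.1, the smallest that 3 against 3 libraries allow (0.2 after Benjamini-Hochberg adjustment over 3 ratios chosen after the values were seen). Snrpn shares its transcript with Snurf, which was listed at only 1.36 to 1.67 FPKM, so how the authors' counting divided reads between the 2 symbols bears on both.

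Of the other Sm genes, Snrpg was at 299 ± 19.8 against 326 ± 12.8 FPKM (SD, n = 3, log2 difference -0.13, limma adjusted p = 0.076) and Snrpd1 at 93.2 ± 6.74 against 99.1 ± 4.03 FPKM (-0.09, adjusted p = 0.211). Snrpe was at 335 ± 31.2 against 323 ± 2.87 FPKM, with a 95% interval of the log2 difference from -0.08 to 0.19. Snrpf was at 113 FPKM in both groups, and its log2 difference of -0.0024 turned positive without siCircGigyf2 replicate 2 (0.060) or siNC replicate 2 (0.012). Of its transcript, 65.9% overlaps exons of Ccdc38 on the opposite strand. The largest decreases in mean level among the 67 members were those of the Sm genes Snrpd2, Snrpd3 and Snrpg (48.6, 29.1 and 27.2 FPKM) and of Lsm7 (27.5 FPKM). The summed level of all 67 was 3975 to 4163 FPKM in the siCircGigyf2 libraries and 4242 to 4323 FPKM in the siNC libraries. These levels were not scaled to the library sums, which also differed by group, and the difference was not tested.

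**Figure D3:**
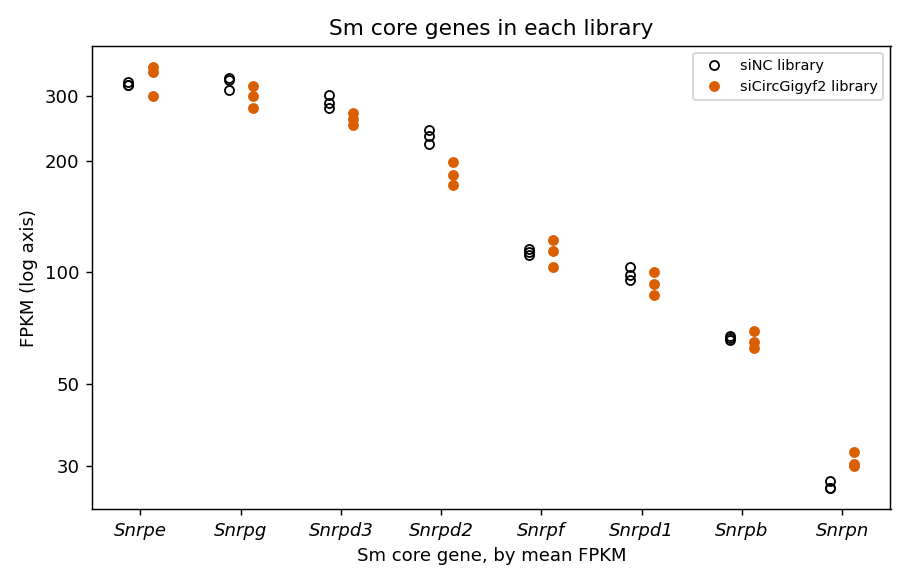
FPKM (log axis) of the 8 Sm core genes in each of the 6 libraries, open points for siNC and filled points for siCircGigyf2, ordered by mean. Snrpd2 and Snrpd3 are lower and Snrpn higher in all 3 siCircGigyf2 libraries, and the other 5 overlap.

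Of 9 genes for proteins of the U1 and U2 particles, which recognise splice sites, Prpf40b (lower) and Prpf39 (higher) were called. Both encode proteins associated with U1. The 22.2% called comes from too few genes to set against the 38.2% of all genes tested. Prpf40b was at 8.31, 7.88 and 8.41 against 8.93, 9.77 and 9.23 FPKM, a fall of 0.16 (limma adjusted p = 0.0326). Prpf39 was at 17.1, 16.2 and 16.7 against 14.5, 15.6 and 15.5 FPKM, a rise of 0.13 (limma adjusted p = 0.0425), and shares 599 exonic bases with Fkbp3 on the opposite strand. In both genes the groups did not overlap by a small margin. Neither call was robust. That of Prpf40b was lost without siCircGigyf2 replicate 1 (adjusted p = 0.0582), siCircGigyf2 replicate 2 (0.0929), siNC replicate 2 (0.112) or siNC replicate 3 (0.0723), with no low-value filter (0.0597) and after quantile normalization (0.0508), over a range of 0.0283 to 0.112 for 14 alternatives, and that of Prpf39 without any library but siCircGigyf2 replicate 2 (adjusted p from 0.0579 to 0.148), with no low-value filter (0.0644) and with no variance trend (0.0556), over a range of 0.0333 to 0.148. The U2 auxiliary factor genes U2af1 and U2af2, which read the 3′ splice site, were at 104 ± 1.62 against 109 ± 3.73 FPKM and at 60.3 ± 0.937 against 58.2 ± 1.48 FPKM (SD, n = 3), and neither passed the test (limma adjusted p = 0.152 and 0.23).

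SF3B is the part of U2 that grips the branch point. Of 9 SF3A and SF3B genes 2 were called, both lower. The 22.2% called comes from too few genes to set against the 38.2% of all genes tested. Sf3b3 was at 75.3, 77.5 and 73.9 FPKM in the siCircGigyf2 libraries against 91.4, 89.3 and 91.2 FPKM in the siNC libraries. The groups lay far apart relative to their spread, and Sf3b3 fell by 0.26 (SE 0.030, limma adjusted p = 0.000245). Sf3b1, the scaffold that Sf3b3 binds, was at 84.9, 83.0 and 79.4 against 80.9, 79.8 and 82.2 FPKM, and its groups overlapped (log2 difference 0.02, 95% interval -0.05 to 0.10, adjusted p = 0.582). The intervals of these 2 subunits did not meet, since that of Sf3b3 ran from -0.33 to -0.19, but the difference between them was not tested. Sf3b4 was called lower at the edge of the threshold (29.3 ± 0.961 against 31.5 ± 0.660 FPKM, limma adjusted p = 0.0497). The call was lost without any library but siCircGigyf2 replicate 2 (adjusted p from 0.0756 to 0.159), with a pseudocount of 0.1 (0.0501), without a filter on low values (0.0636), after quantile normalization (0.0531) and with no variance trend (0.084), over a range of 0.0354 to 0.159. Sf3b2, Sf3b5, Sf3b6 and the 3 SF3A genes did not pass, with log2 differences from -0.10 (Sf3a3) to 0.09 (Sf3b5).

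In the U4/U6.U5 tri-snRNP, 4 of 10 genes fell and 1 rose. The 50% called comes from too few genes to set against the 38.2% of all genes tested (18.7% lower and 19.5% higher). Prpf6, which bridges U5 to U4/U6, was at 54.1, 55.2 and 53.9 FPKM against 70.4, 68.8 and 69.6 FPKM. Libraries of a group lay close together next to the gap between the groups, and the fall of 0.35 was the second in size (SE 0.028, limma adjusted p = 4.97e-05). Prpf8, the protein at the catalytic heart of the spliceosome, was at 82.2, 82.1 and 81.4 against 92.7, 89.9 and 92.8 FPKM, a fall of 0.16 (SE 0.028, limma adjusted p = 0.00186). Prpf31 and Prpf4, both of the U4/U6 particle, were lower at 11.3 ± 0.406 against 13.1 ± 0.322 FPKM (SD, n = 3, adjusted p = 0.0089) and at 4.49 ± 0.0870 against 5.66 ± 0.562 FPKM (adjusted p = 0.0138). For Prpf4, the least abundant member, the call was lost when siNC replicate 1 was left out (adjusted p = 0.0506) and when siNC replicate 2 was (0.0539), over a range of 0.00477 to 0.0539. Prpf4b, a kinase that acts on the tri-snRNP, was the gene that rose (27.2 ± 1.02 against 24.4 ± 0.945 FPKM, adjusted p = 0.0212), a call lost without siCircGigyf2 replicate 3 (0.07) or siNC replicate 1 (0.0796), over a range of 0.0168 to 0.0796. Eftud2, the GTPase of U5, the helicase Ddx23, and Prpf3, Prpf38a and Prpf38b did not pass, with log2 differences between -0.06 and 0.03.

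Of 13 Lsm genes, 3 fell and 2 rose, and the 38.5% called was close to the 38.2% of all genes. Lsm2 to Lsm8 form the nuclear ring on U6, Lsm1 replaces Lsm8 in the cytoplasmic ring that acts in mRNA decapping, Lsm10 and Lsm11 belong to the U7 particle that processes histone pre-mRNA, and Lsm14a and Lsm14b act in mRNA storage and translational repression and are not spliceosomal. The greatest change of the 13 was in the last of these: Lsm14b was at 47.3, 47.0 and 46.3 against 59.1, 62.6 and 58.2 FPKM, and fell by 0.35 (SE 0.035, limma adjusted p = 0.000124), with all siCircGigyf2 libraries below all siNC libraries. Within the rings Lsm6 and Lsm7 fell (15.1 ± 0.687 against 17.2 ± 0.687 FPKM and 257 ± 2.65 against 284 ± 12.8 FPKM, SD, n = 3, limma adjusted p = 0.0164 and 0.0123). The call for Lsm6 was lost without siCircGigyf2 replicate 3 (0.0529) or siNC replicate 2 (0.0611), over a range of 0.0119 to 0.0611. Lsm1 rose (13.6 ± 0.321 against 12.3 ± 0.157 FPKM, adjusted p = 0.0254), whereas Lsm8 was at 53.4 ± 3.81 against 54.7 ± 2.43 FPKM (adjusted p = 0.635). The ratio of Lsm1 to Lsm8 was 0.255 ± 0.0220 against 0.224 ± 0.0106 (SD, n = 3), the groups overlapped, and the exact two-sided permutation p was 0.2. With 3 libraries a group that test cannot give less than 0.1, so it does not decide whether the ratio shifted. Lsm10 rose as well (15.8 ± 0.806 against 14.0 ± 0.601 FPKM, limma adjusted p = 0.0263), and Lsm11 was at 7.79 ± 0.263 against 7.21 ± 0.0867 FPKM without passing (0.14). The calls of Lsm1 and Lsm10 were lost without siCircGigyf2 replicate 3 (adjusted p = 0.0751 and 0.08), siNC replicate 1 (0.0795 and 0.0689) or siNC replicate 3 (0.0694 and 0.0898), that of Lsm1 also without siCircGigyf2 replicate 2 (0.0563) and that of Lsm10 also without siCircGigyf2 replicate 1 (0.0809) and with no low-value filter (0.0537), over ranges of 0.0191 to 0.0795 and 0.0137 to 0.0898.

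Of 6 helicase genes, 2 fell and 1 rose, too few to set against the 38.2% called among all genes. Ddx46, which acts when U2 joins the intron, was at 14.9, 14.0 and 14.7 against 16.2, 17.3 and 16.8 FPKM (fall of 0.20, limma adjusted p = 0.00622). Dhx8, which releases the spliced mRNA, was at 29.0, 30.0 and 29.5 against 33.5, 32.3 and 33.5 FPKM (fall of 0.16, limma adjusted p = 0.00486). In both, every siCircGigyf2 library was below every siNC library. Dhx15, which disassembles the particle, was the one that rose, at 58.2, 57.0 and 57.3 against 54.0, 53.0 and 54.9 FPKM (log2 rise 0.09, limma adjusted p = 0.0383), and lost its call without any 1 of the 6 libraries (adjusted p from 0.0525 to 0.112), after quantile normalization (0.098) and with no variance trend (0.087), over a range of 0.0315 to 0.112. Aqr, Dhx16 and Dhx38 did not pass. Aqr, the helicase that binds the intron, had overlapping groups (28.4, 26.8 and 27.0 against 28.1, 29.0 and 26.6 FPKM), and the 95% interval of its log2 difference ran from -0.12 to 0.07. Its sign turned without siNC replicate 2 (0.0028). Dhx16, needed before the first catalytic step, was at 15.8 ± 0.492 against 16.2 ± 0.0834 FPKM and Dhx38, needed before the second, at 40.1 ± 2.14 against 39.2 ± 1.47 FPKM (SD, n = 3, limma adjusted p = 0.487 and 0.597), the latter with a sign that turned without siCircGigyf2 replicate 2 (-0.0096).

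Of 8 genes of the Prp19 complex and step factors, Cdc40 among them, 2 fell and 1 rose. The 37.5% called was close to the 38.2% of all genes tested, and so is not a result about this list. Prpf18, which acts with Cdc40 in the second step, fell by 0.18 (21.8 ± 0.416 against 24.7 ± 0.884 FPKM, SD, n = 3, limma adjusted p = 0.00646). Cwc15, a small subunit of the active particle, rose: it was at 59.4, 58.1 and 55.2 against 52.6, 48.3 and 52.1 FPKM, with every siCircGigyf2 library above every siNC library (log2 rise 0.17, SE 0.042, limma adjusted p = 0.0116). Cdc5l, Crnkl1, Bcas2 and Plrg1, the scaffold proteins that Prpf19 binds or meets, did not pass, with log2 differences from -0.01 to 0.08.

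Of the 4 genes for the core of the exon junction complex and its loader, 1 was called, too few to set against the 38.2% of all genes tested. The core is the RNA clamp Eif4a3 with the pair Magoh and Rbm8a, and Cwc22 is the spliceosomal protein that delivers Eif4a3. Genes of the periphery of the complex are given further below. Eif4a3 was at 73.8, 72.5 and 72.1 against 77.5, 75.5 and 80.3 FPKM, a fall of 0.09 that passed the test (limma adjusted p = 0.0442) but was lost without any library but siNC replicate 2 (adjusted p from 0.0608 to 0.155), with no low-value filter (0.0555) and with no variance trend (0.0992), over a range of 0.00913 to 0.155. Rbm8a was at 21.8 ± 1.78 against 23.9 ± 1.34 FPKM (SD, n = 3), Cwc22 at 22.3 ± 0.906 against 23.3 ± 0.676 and Magoh at 69.0 ± 7.63 against 67.9 ± 2.20, and their 95% intervals of the log2 difference all held 0 (-0.26 to 0.01, -0.15 to 0.04 and -0.14 to 0.17). The sign of Magoh turned after quantile normalization (-0.013) and without siCircGigyf2 replicate 1 (-0.057) or siNC replicate 2 (-0.0025). Magohb, a close paralog at 11.1 ± 0.645 against 12.6 ± 1.04 FPKM, can share reads with Magoh. The ratio of Magoh to Magohb was 6.19 ± 0.435 against 5.41 ± 0.643 (SD, n = 3), and the exact two-sided permutation p was 0.2. Here too 0.1 is the smallest p possible, so the test does not decide whether the ratio shifted.

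**Figure D4:**
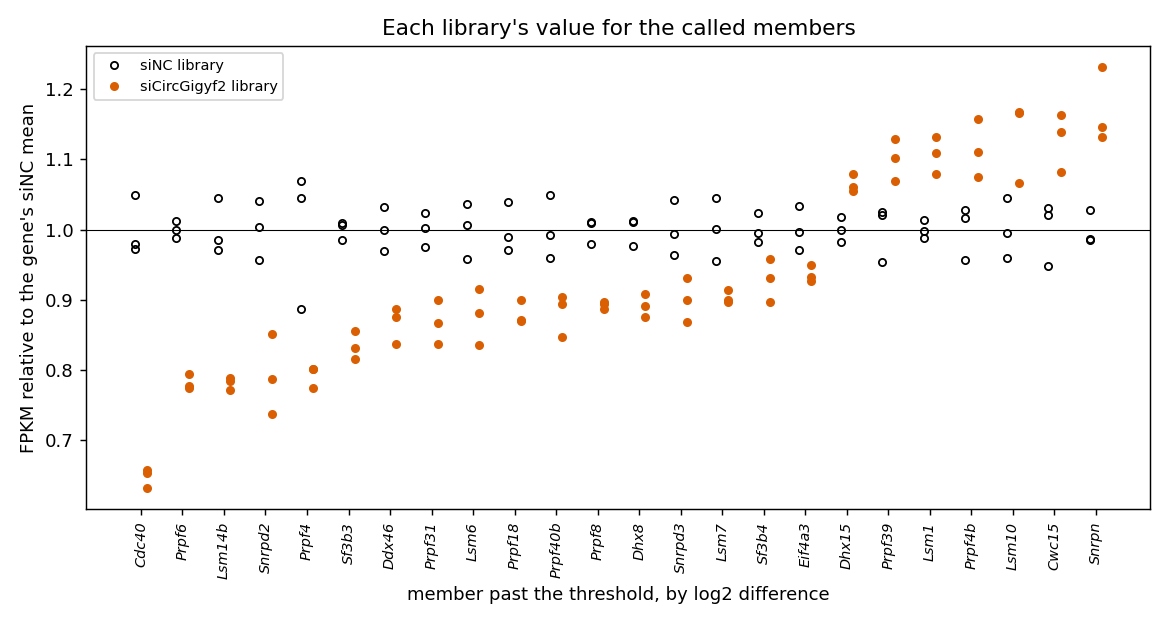
FPKM of each library divided by the gene's siNC mean (y axis) for the 24 members past the threshold, ordered by log2 difference, open points for siNC and filled points for siCircGigyf2. For all 24 the groups do not overlap, with the widest gap at Cdc40.

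Other genes of the pathway, 91 in 4 lists outside the name rule, gave 11 rises, 18 falls and 62 genes that did not pass. The 31.9% called (12.1% higher and 19.8% lower) was under the 38.2% of all genes tested (19.5% higher and 18.7% lower), and so is not a result about these genes. The falls counted 10 without siNC replicate 1. The list of snRNP proteins named Snrnp and of the minor (U12-type) spliceosome, which removes a rare class of introns, held 4 rises and 0 falls among 13 genes, or 30.8% called, against 38.2% of all genes called and 19.5% called higher. The proteins of the 4 genes that rose are known from the U11/U12 particle of the minor spliceosome, a grouping made after the values were seen and not tested. Snrnp48 was at 24.3, 22.8 and 24.4 against 20.6, 18.3 and 19.2 FPKM, a rise of 0.29 (SE 0.049, limma adjusted p = 0.00192). Snrnp25 was at 25.6, 25.2 and 23.0 against 19.7, 21.8 and 18.3 FPKM, a rise of 0.29 (SE 0.065, limma adjusted p = 0.00694). Zmat5 was at 13.9, 13.5 and 12.7 against 12.0, 11.6 and 11.6 FPKM, a rise of 0.18 (limma adjusted p = 0.0138). In these 3 genes every siCircGigyf2 library was above every siNC library. In Snrnp35 the groups overlapped (8.98, 7.24 and 8.84 against 5.73, 7.66 and 5.92 FPKM, limma adjusted p = 0.0362), and the call was lost without siCircGigyf2 replicate 1 (0.118), siCircGigyf2 replicate 3 (0.104), siNC replicate 1 (0.112) or siNC replicate 3 (0.107), with no low-value filter (0.102) and with no variance trend (0.059), over a range of 0.00784 to 0.118. Rnpc3, Pdcd7 and Zcrb1, of the same particle, did not pass (limma adjusted p = 0.523, 0.302 and 0.977), nor did Snrnp200 and Snrnp70 of the major spliceosome (0.754 and 0.727).

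Among 42 further core spliceosome genes 3 rose and 8 fell (26.2% called, under the 38.2% of all genes tested). Tfip11, which works with Dhx15 in disassembly, fell by 0.31 (20.1 ± 0.779 against 25.2 ± 0.440 FPKM, SD, n = 3, limma adjusted p = 0.000371), and the peptidyl-prolyl isomerase gene Ppil1 by 0.36 (8.04 ± 0.357 against 10.6 ± 0.633, adjusted p = 0.00121). Nhp2l1, which binds U4, fell by 0.18 and Luc7l3, a U1-associated factor, rose by 0.16. In the SMN complex and its partners, which load Sm rings onto snRNA, 2 of 18 rose and 5 fell. The 38.9% called was close to the 38.2% of all genes tested, and so is not a result about this list. Gemin7, of the complex itself, rose by 0.56 (7.83 ± 0.432 against 5.00 ± 0.674 FPKM, adjusted p = 0.00089), and Gemin8, of the same complex, fell by 0.47 (7.79, 6.53 and 8.73 against 10.2, 11.7 and 11.1 FPKM, adjusted p = 0.00339). Gemin4, also of the complex, fell by 0.17 (adjusted p = 0.0372), a call lost without any library but siCircGigyf2 replicate 2 (adjusted p from 0.0729 to 0.101) and with no low-value filter (0.0633), over a range of 0.0123 to 0.101. The methylosome cofactor gene Coprs rose (0.31), whereas the arginine methyltransferase gene Prmt7 (-0.37) and Strap (-0.22) fell. Among 18 genes of the exon junction complex periphery and of mRNA export, 2 rose and 5 fell (38.9% called, again close to 38.2%). Rnps1, a splicing activator that joins the exon junction complex, was at 90.1, 90.3 and 94.0 against 118, 114 and 115 FPKM, and fell by 0.33 (SE 0.030, limma adjusted p = 8.02e-05). The export receptor gene Nxf1 rose (0.20, adjusted p = 0.00114) and the TREX subunit gene Thoc3 fell (-0.16, adjusted p = 0.0103). Thoc7, of the same TREX complex, rose by 0.28 (33.2 ± 3.50 against 27.2 ± 3.18 FPKM, limma adjusted p = 0.0346), a call lost without siCircGigyf2 replicate 1 (0.0639), siCircGigyf2 replicate 3 (0.106), siNC replicate 1 (0.0984) or siNC replicate 3 (0.0616), with no low-value filter (0.0995) and with no variance trend (0.0662), over a range of 0.0197 to 0.106. Acin1, a partner of Rnps1, fell by 0.13 (adjusted p = 0.018), a call lost without siNC replicate 1 (0.0723) or siNC replicate 2 (0.062), over a range of 0.011 to 0.0723.

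Gene models added a description of what the members share. The 17 that fell had a median annotated transcript length of 3308 bases and a median GC content of 51.5%, the 7 that rose 2663 bases and 44.4%, the 43 others 2088 bases and 47.5%, and all tested genes with a model 3010 bases and 50.6%. Promoters from RefSeq on build GRCm38.p6, from 250 bases before to 50 after a gene's start, could be matched by symbol to 53 of the 67. On either strand, 19 of these 53 genes (35.8%) held CCGGAAG, a core of ETS-family sites, against 21.3% of 8702 tested genes with a promoter and 9.93% of all 27025 genes in the promoter table. It was in 3 of 15 members that fell, 2 of 6 that rose and 14 of 32 that did not pass. GCATGCGC, the core of NRF1 sites, was in 3 of the 53 members (5.66%) and 6.41% of tested genes, and AAGATGGCG, of YY1 sites, in 3 of 53 (5.66%) and 3.90%. All were searched on both strands, CCGGAAG and AAGATGGCG can overlap by AAG, and a match is a description, not a bound site. The promoters of Prpf6, the greatest fall with CCGGAAG, and of Cwc15, the rise with 2 copies of it, are shown with CCGGAAG or its reverse complement CTTCCGG in capitals, so that the same letters can be seen in a gene that fell and a gene that rose.
Prpf6, plus strand of chr2:181601069-181601368: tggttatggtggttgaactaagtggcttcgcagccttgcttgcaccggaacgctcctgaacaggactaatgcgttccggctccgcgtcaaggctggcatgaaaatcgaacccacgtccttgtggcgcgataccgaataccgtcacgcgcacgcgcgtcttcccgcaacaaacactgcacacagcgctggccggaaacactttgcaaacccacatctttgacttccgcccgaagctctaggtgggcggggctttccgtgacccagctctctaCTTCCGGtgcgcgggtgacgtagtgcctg
Cwc15, plus strand of chr9:14500369-14500668: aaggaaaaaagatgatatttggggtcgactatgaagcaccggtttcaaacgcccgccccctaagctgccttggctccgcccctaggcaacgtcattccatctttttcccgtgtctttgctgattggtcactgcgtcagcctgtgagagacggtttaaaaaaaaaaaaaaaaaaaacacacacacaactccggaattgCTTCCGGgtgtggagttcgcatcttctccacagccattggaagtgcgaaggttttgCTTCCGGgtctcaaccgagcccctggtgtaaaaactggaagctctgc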

How the data were processed

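Expression was measured by RNA-seq in 6 CAD libraries, 3 a group; groups and replicate numbers came from the titles, and columns were matched by title. The authors deposited FPKM, 1 row per gene symbol. The genome was mm9, per the submitters' processing notes; the aligner, quantifier, annotation and handling of strand are not given in the sources used here. FPKM are not counts, so no count model was used. Depth is known only relative to siNC replicate 1, and 3 libraries a group limit the precision. The most alike pair of libraries had 0.0062% equal non-zero values. A change in the amount of RNA in a cell is invisible to FPKM.

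The test was limma 3.58.1 (R 4.3.3) applied to log2(FPKM + 1) of genes whose mean reached 1 FPKM, as 2 groups with a variance trend, two-sided, with Benjamini-Hochberg adjustment over all 11420 genes and a threshold of 0.05; intervals are 95% and unadjusted. This scale understates changes of low genes. In a simulation with 11420 genes, 67 were changed by 1.2-fold, 67 by 1.5-fold and 66 by 2-fold. Of these, 50.7%, 79.1% and 97.0% were recovered, and 8 of 159 calls were false. The data gave 4367 calls, and the adjusted p depends on how many genes change. These shares therefore do not give the recovery in the data. The alternatives tried used another pseudocount (0.1), another filter (none, or 5 FPKM), another scaling (quantile, or median-of-ratios), a block for replicate number, a variance prior that was robust or had no trend, and 1 library fewer.

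Members, lists and ratios were chosen with earlier results of these data known. The naming rule covered called members, the Sm, helicase and exon junction complex genes and Gigyf2. It also covered up to 4 related genes per list with the smallest p. Other uncalled members were named after their values were seen. So were Rnpc3, Pdcd7, Zcrb1, Snrnp200, Snrnp70, Magohb, Snurf, Gemin8, Gemin4 and Thoc7. The same holds for the markers Col1a1, Gap43, Tubb3, Dbh, Slc18a1, Hand2, Gata2, Phox2a, Chgb and Chga. Gene models were from GENCODE M21 on GRCm38 (Python 3.11.15, pandas 2.3.3), joined by symbol, longest coding transcript.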

Additional observations from a re-analysis of the deposited data

How the results depend on the processing

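Of the 24 called members, 14 (12 lower and 2 higher) kept direction and call under all 14 alternatives and the other 10 lost the call under at least 1; none changed direction. The cause of these losses was not tested. The count of members called higher (7) was 4 with the replicate block and 2 to 6 when 1 library was left out. The count called lower (17) was 13 to 17 when 1 library was left out. Over all genes 4367 were called, and 3521 to 3923 without 1 library. Related genes called lower (18) were 10 to 20 without 1 library, and those called higher (11) 8 to 12. The median of the members (-0.024) stayed between -0.038 and -0.0096. Signs turned for genes that had not been called: Magoh after quantile normalization (-0.013), and, over leave-one-out fits, Magoh (-0.057 to 0.10), Aqr (-0.056 to 0.0028), Dhx38 (-0.0096 to 0.063), Snrpb (-0.060 to 0.015), Snrpf (-0.060 to 0.060) and Lsm8 (-0.087 to 0.013). The replicate numbers share no stated origin: deviations of same-numbered libraries correlated at 0.16, -0.021 and 0.0025 over genes. Blocking on them called 3973 genes over all and kept 17 of the 24 member calls, losing Eif4a3 (adjusted p = 0.07), Sf3b4 (0.0889), Prpf39 (0.0823), Prpf40b (0.0688), Dhx15 (0.0671), Lsm1 (0.0516) and Lsm10 (0.0582) by limma, and also lost Gigyf2 (0.0598), Snrnp35 (0.0759) and Gemin4 (0.0756); not every library correlated best with its own number. FPKM without fragment counts leave the counting error of each value unknown.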
